A study of Saccharomyces cerevisiae BY4741 with 8 samples.

Results

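The comparison described here is that of *Saccharomyces cerevisiae* cells exposed to 80 μg/ml KP1019 with untreated cells. Its members were chosen by label as every array titled with this dose, which gave 4 of the 8 arrays of the series, from 2 of its 4 biological replicates. Each biological replicate was hybridised to a pair of 2-colour arrays, A and B, on which the dyes of the treated and untreated samples were exchanged. The treated group was strain BY4741, a MATa laboratory strain without functional *HIS3*, *LEU2*, *MET17* and *URA3*, grown in synthetic complete medium with glucose at 30 °C to early logarithmic phase and then given 80 μg/ml KP1019 for 3 h. The untreated group was the rest of the same split culture, kept for 3 h without the drug, so that every array set a treated sample against its own untreated partner. The other 4 arrays of the series set cells given 40 μg/ml against their own untreated partners in the same way. All groups shared 1 strain, and the arrays were prepared in an upper level genetics course.

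KP1019 is a ruthenium(III) complex with indazole and chloride ligands that has been tested as an anticancer drug. Damaged or stalled DNA in budding yeast activates the kinases Mec1, Rad53 and Dun1, which lift the Crt1 (Rfx1) repressor from the genes for ribonucleotide reductase, the enzyme that makes deoxyribonucleotides, and hold the cell cycle before the chromosomes separate. A cell that has not left mitosis has not yet switched on the set of genes that let the daughter cell part from its mother, nor the genes that the transcription factor Swi5 activates as mitosis ends. Foreign compounds are also met by Pdr1 and Pdr3, zinc-cluster factors that switch on membrane pumps.

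Each array held 6688 features, of which 85 were blank and 23 were controls, and the remainder measured 6388 genes. The genes were read as log2 of the treated over the untreated intensity, so a positive value means more RNA in treated cells. The median raw intensity of a treated sample lay between 688 and 3676 units and that of an untreated sample between 500.3 and 3948 units, with the dimmest of both on array A of replicate 1. Between 89.4% and 98.43% of genes in the treated channels and between 89.51% and 99.2% in the untreated channels were brighter than the blank spots (median plus 3 median absolute deviations). The log2 ratios of array A of replicate 1 correlated with those of the other arrays at r = 0.4057, 0.2441 and 0.6032, and those of the other arrays with each other at r = 0.6614 to 0.7804, over genes, which are not independent replicates. Averaged over each dye pair, the 2 replicates correlated at r = 0.7219. The a-cell genes *MFA1*, *MFA2* and *STE2* were above the blanks in both channels on 4 of 4 arrays. The same held for 85.38% of all genes and for 2 of 4 alpha-cell genes, and it therefore does not mark the strain. *URA3* was above the blanks on 0 of 4 treated and 1 of 4 untreated channels and *LEU2* on 2 of 4 treated and 1 of 4 untreated channels. The *HIS3* and *MET17* spots lay above the blanks in both channels on all 4 arrays, although the strain lacks a functional copy of both genes.

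The largest changes at 80 μg/ml included rises of genes of the DNA damage response and drug resistance and falls of genes of cell separation, zinc and inositol. By limma on the log2 ratios, with a Benjamini-Hochberg adjusted p under 0.05 over 6388 genes, 135 genes were higher in treated cells (2.11% of genes) and 90 were lower (1.41%), together 3.52%. The higher genes had a median log2 ratio of 1.17 and the lower ones of -1.18, while the median over all genes was -0.0026. At least 2-fold changes were reached by 91 higher and 64 lower genes and at least 4-fold changes by 9 higher and 12 lower genes, and the smallest changes called were 0.77 and -0.79. All but 2 of the 225 had the same sign on the 4 arrays, which 44.91% of all genes also had. The exceptions were *BNA2* and *YOR387C*. In the plot of the 2 biological replicates the called genes lie on the same side of 0 in both, which the test selects for. Some lie off the diagonal, such as *SFG1* at -0.86 in replicate 1 and -2.18 in replicate 2, and *YDL038C* at 1.10 and 2.63. The number of calls rested on which replicates were fitted and on how the local background was treated. It was 53 of 5943 genes when the background was subtracted, whereas a fit of the 80 μg/ml replicates alone called 1415. A fit without 1 replicate of 80 μg/ml takes its spread from the pair at the lower dose alone. Calls lost or kept without a replicate, given below, depend on that spread. They do not by themselves show how well the 2 replicates match.

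**Figure D1:**
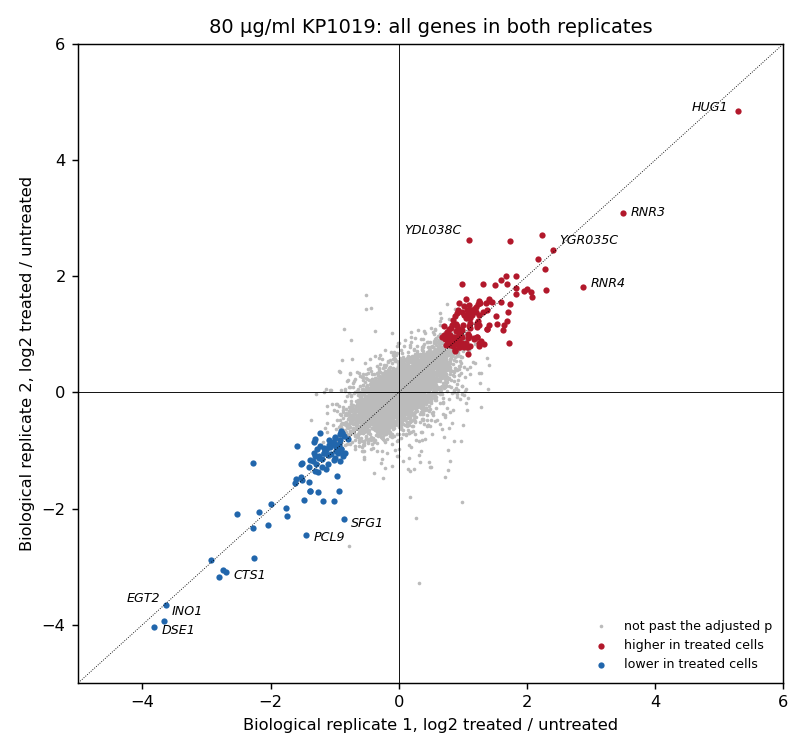
Log2 ratio of treated over untreated intensity of each of the 6388 genes in replicate 1 (horizontal axis) and replicate 2 (vertical axis) at 80 μg/ml KP1019. Each point is the mean of a dye pair, coloured points are the 135 higher and 90 lower genes, and the dotted line is equality. *HUG1* stands farthest to the upper right, and *DSE1*, *INO1* and *EGT2* farthest to the lower left.

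The 2 genes with the largest rises, *HUG1* and *RNR3*, are both repressed by Crt1. All gene lists used here were chosen with earlier results of these data known, so their counts are descriptions and not tests. The list of Crt1 genes held 5 measured genes, of which 4 were higher and 0 lower, with a median log2 ratio of 2.34 and the same count of 4 without either replicate and with subtracted background. *HUG1*, whose small product binds and restrains ribonucleotide reductase, had log2 ratios of 5.65, 4.94, 5.13 and 4.55 on array A and array B of replicate 1 and array A and array B of replicate 2, the order used throughout. Its mean of 5.07 ± 0.32 was the highest of all genes (SD, n = 2 biological replicates, as for every mean given below, limma adjusted p = 3.50e-05). Its raw intensity was 10370.0, 38095, 24706 and 26002 units in the treated samples against 117, 1212, 1116 and 911 units in the untreated samples, which do not overlap.

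*RNR3*, the alternative large subunit of ribonucleotide reductase that is almost silent without damage, had log2 ratios of 3.72, 3.28, 2.74 and 3.44 (mean 3.30 ± 0.29, adjusted p = 1.92e-04 by limma). *RNR4*, a small subunit, had 3.55, 2.19, 1.49 and 2.14 (mean 2.34 ± 0.75, adjusted p = 0.00379 by limma). *RNR2*, the other small subunit, had 2.18, 1.17, 1.86 and 2.15 (mean 1.84 ± 0.23, adjusted p = 0.00172 by limma). All 3 were higher in treated cells on every array, with *RNR4* less even between replicates than the others. *RNR1*, the main large subunit, which is regulated with the cell cycle and not by Crt1, was above 0 on 4 arrays at 1.56, 0.81, 0.54 and 0.49 but did not pass (mean 0.85 ± 0.48, adjusted p = 0.0767 by limma). *RFX1*, the gene of the repressor itself, had a mean of 0.37 ± 0.05 and did not pass either.

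**Figure D2:**
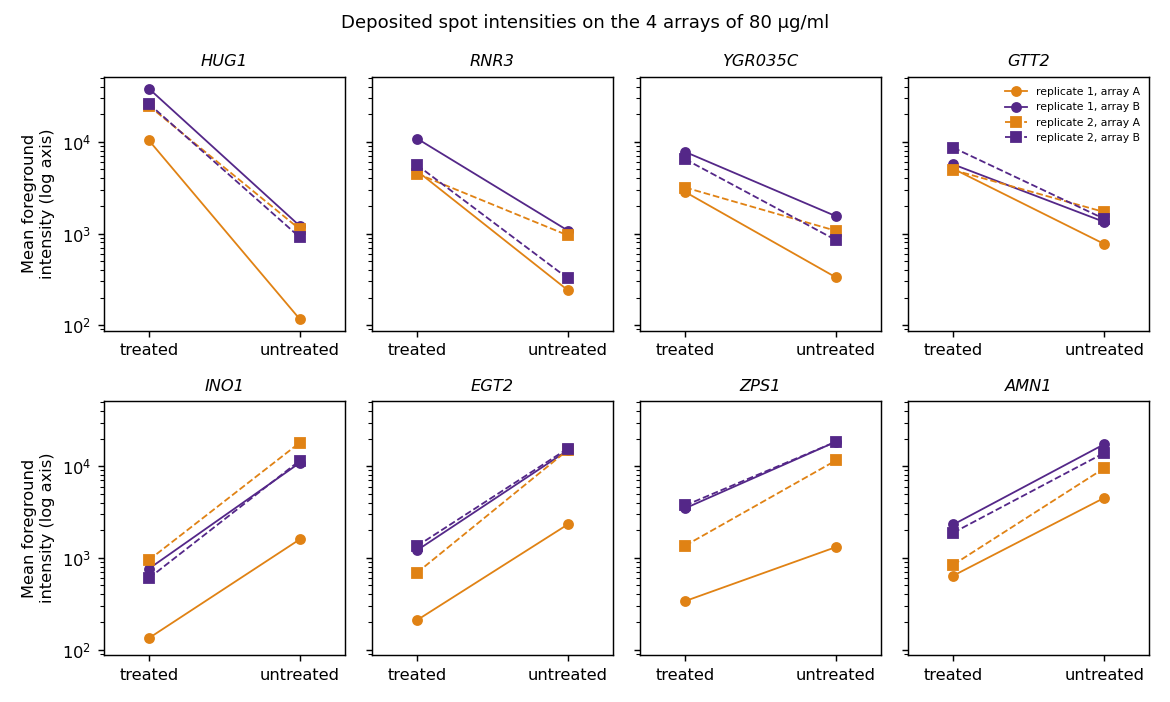
Raw foreground intensity (arbitrary scanner units, log axis) of treated and untreated samples on each of the 4 arrays at 80 μg/ml KP1019, a line joining the pair of values from 1 array. *HUG1*, *RNR3*, *YGR035C* and *GTT2* lie higher on the treated side on every array, and *INO1*, *EGT2*, *ZPS1* and *AMN1* lie lower.

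Of 11 further genes known to be induced by DNA damage, 5 rose and 0 fell, with a median log2 ratio of 0.85. *DIN7*, a nuclease of mitochondrial DNA, averaged 1.78 ± 0.13, and *PLM2*, a forkhead-associated domain protein, 1.58 ± 0.03. *RAD54*, a DNA translocase of recombination, averaged 1.08 ± 0.10, and the checkpoint kinase *DUN1* 1.42 ± 0.14. *MAG1*, a DNA glycosylase that removes alkylated bases, averaged 1.18 ± 0.28, and *DDI1*, a damage-inducible ubiquitin receptor that shares the upstream region of *MAG1*, 0.87 ± 0.03. *DDI1* was chosen after its values were seen and lost its call without either replicate. The adjusted p of these 6 genes by limma lay between 0.00388 and 0.0416. Without replicate 1, 4 members of the list passed, without replicate 2, 3, and with subtracted background 1 of 10. The members that did not pass included the photolyase *PHR1* at -0.05 ± 0.26, the excision repair genes *RAD7* at 0.15 ± 0.09 and *RAD23* at 0.17 ± 0.17, and *DDR48*, a stress protein, at -0.56 ± 0.01. The group was thus uneven, with *RAD54* and *DUN1* higher and most of its excision repair genes near 0.

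Other repair and checkpoint lists held 0 or 1 call each, which at the 3.52% called over all genes is no result about them. None of 14 checkpoint genes, 15 excision repair genes or 11 genes of post-replication and crosslink repair passed, and their median log2 ratios were 0.16, 0.33 and 0.14, the last of which turned its sign without replicate 2. Of 15 homologous recombination genes 1 rose, *TOP3*, a DNA topoisomerase that works with the Sgs1 helicase, at 1.27, 0.94, 1.21 and 1.19 (mean 1.15 ± 0.07, adjusted p = 0.0104 by limma), and it lost its call without either replicate. *RAD59*, an annealing factor, had 0.50, 0.94, 0.69 and 1.39 and did not pass (adjusted p = 0.0548 by limma). Of 17 genes of the cohesin and Smc5/6 complexes, *ECO1*, the acetyltransferase that makes cohesin stable, rose at 0.90 ± 0.21, as did *NSE1* of the Smc5/6 complex at 0.82 ± 0.10. Both calls were lost without either replicate, and that list was chosen after its values were seen.

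Most genes of daughter cell separation fell, in a list chosen, like the others, with earlier results of these data known. Of 18 measured genes of cell separation and of Swi5, 14 were lower in treated cells and 0 were higher, with a median log2 ratio of -1.92, and 12 passed without replicate 1, 13 without replicate 2 and 10 of 18 with subtracted background. In bulk cultures, fewer cells at the stage that makes an RNA and less of that RNA per cell cannot be told apart. *DSE1*, a daughter-specific protein, had log2 ratios of -4.20, -3.43, -3.69 and -4.39 (mean -3.93 ± 0.16, adjusted p = 7.81e-05 by limma). Its raw intensity was 172, 1263, 531 and 725 units in the treated samples and 2667, 15090.4, 12002 and 14266 units in the untreated samples. The treated value was the lower on every array.

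*EGT2*, a cell wall protein of the daughter side, had -3.76, -3.49, -3.67 and -3.64 (mean -3.64 ± 0.02, adjusted p = 7.81e-05 by limma). *DSE4*, the endoglucanase that cuts the septum, had -2.83, -2.79, -2.92 and -3.43 (mean -2.99 ± 0.26), and *CTS1*, the endochitinase that dissolves its chitin, had -2.42, -2.96, -2.94 and -3.24 (mean -2.89 ± 0.28). The glucanase-like genes *SCW11* and *SUN4* averaged -2.56 ± 0.42 and -2.31 ± 0.30, and the daughter-specific *DSE3* -2.12 ± 0.08. *AMN1*, which in daughter cells shuts off the mitotic exit signal, averaged -2.91 ± 0.02 with 4 values between -3.07 and -2.76. Other members lay closer to 0, among them *PCL9*, a cyclin of Pho85, at -1.95 ± 0.72, *ASH1*, the daughter repressor of *HO*, at -1.51 ± 0.005, and *BUD9*, a bud site mark, at -1.38 ± 0.21.

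*PRY3*, *TOS6* and *NIS1*, which encode proteins of the wall and the bud neck, averaged -1.75 ± 0.75, -1.53 ± 0.49 and -1.88 ± 0.17. Values on *PRY3* were -2.12, -2.44, -0.13 and -2.31, with array A of replicate 2 well apart from the rest. The members that did not pass were *SIC1*, the Cdk inhibitor of mitotic exit, at -0.79 ± 0.002 (adjusted p = 0.0578 by limma), the meiotic repressor *RME1* at -0.73 ± 0.24, *CYK3* of the cytokinesis ring at -0.49 ± 0.34, and *DSE2*, a glucanase-like protein, at -0.01 ± 0.01. The *DSE2* spot gives little information, since it was above the blanks on 1 of 4 arrays in the treated and 1 of 4 in the untreated channel.

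**Figure D3:**
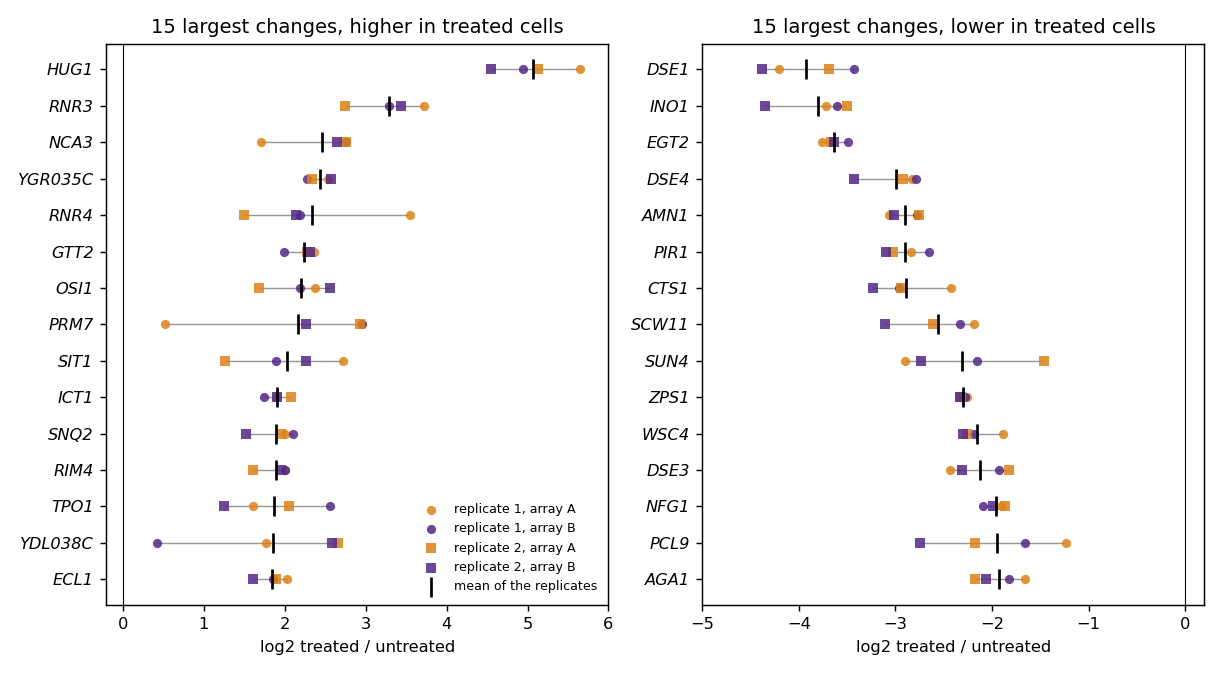
Log2 ratio of treated over untreated intensity on each of the 4 arrays at 80 μg/ml KP1019 for the 15 genes with the largest rise and the 15 with the largest fall among called genes of 1 sign on every array. Points are single arrays and black bars the mean of the 2 biological replicates, with *HUG1* at 5.07 and *DSE1* at -3.93 at the top of the panels.

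Outside that group, the lists of cell wall genes held few calls, in both directions. Over all genes 2.11% were called higher and 1.41% lower, so a single call in a list is no result about the list. *WSC4*, a wall stress sensor of the endoplasmic reticulum and plasma membrane, fell with log2 ratios of -1.89, -2.19, -2.26 and -2.30 (mean -2.16 ± 0.17, adjusted p = 7.05e-04 by limma), and *PST1*, a wall protein that the cell integrity pathway induces, fell at -1.49 ± 0.04. These were 2 of 15 genes of the cell wall integrity pathway, of which 0 rose, and both kept their calls without either replicate. Of 5 PIR genes, whose products are bound to glucan by an alkali-sensitive link, 1 fell and 1 rose. *PIR1* had -2.84, -2.65, -3.02 and -3.10 (mean -2.90 ± 0.22, adjusted p = 6.10e-04 by limma) and its chromosomal neighbour *PIR3* 0.70, 1.22, 1.05 and 0.53 (mean 0.87 ± 0.12, adjusted p = 0.0303 by limma). Only *PIR1* passed when a replicate was left out.

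Of 13 mannoprotein genes, *TIP1* rose at 0.88 ± 0.10 and *CWP1* fell at -1.04 ± 0.19, and 0 passed without either replicate. *GSC2*, the alternative glucan synthase subunit used under stress, was the 1 of 16 glucan and chitin genes to rise, at 0.84, 1.25, 1.44 and 1.14 (mean 1.17 ± 0.17), and it lost its call without replicate 2. *YPS3*, a surface aspartyl protease, averaged 1.50 ± 0.12, *NFG1*, a cell wall protein linked to filamentous growth, -1.96 ± 0.05, and *SRL1*, a mannoprotein, -1.06 ± 0.09. Except for *NFG1*, which is among the 15 largest falls, these last genes were chosen after their values were seen, and *SRL1* lost its call without either replicate. In a list of 22 genes of GDP-mannose synthesis and mannosyltransferases that was also chosen after its values were seen, 3 fell and 0 rose, with a median of -0.32. They were *PSA1*, which makes GDP-mannose, at -1.06 ± 0.005, *PMI40*, phosphomannose isomerase, at -1.004 ± 0.10, and *MNN1*, a Golgi mannosyltransferase, at -0.87 ± 0.08. All 3 calls were lost without either replicate.

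The cell cycle lists other than cell separation each held 0 to 2 calls. Of 16 genes of the CLB2 cluster, which peaks as cells enter mitosis, *CLB1*, a mitotic cyclin, fell at -1.27 ± 0.04 and *SPO12*, a regulator of mitotic exit, rose at 1.02 ± 0.33. Of 21 G1 genes of MBF and SBF, *CLN2*, a G1 cyclin, fell at -1.19 ± 0.15 and *RFA2*, a subunit of the single-strand DNA binding complex, rose at 0.86 ± 0.11. Each call made up 6.25% of the CLB2 cluster or 4.762% of the G1 genes, against 2.11% of all genes called higher and 1.41% lower. The medians of both lists, -0.16 and 0.06, were near that of all genes. *CLB1* and *CLN2* passed without replicate 2 and not without replicate 1, while *SPO12* and *RFA2* lost their calls without either replicate. None of 11 replication licensing genes, 16 spindle and motor genes or 14 septin and cytokinesis ring genes passed.

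The core and variant histone genes lay below 0 in 10 of 10 cases, although only 2 passed. Their median was -0.69, against -0.0026 over all genes. Genes of a list are not independent replicates. *HTA1*, for histone H2A, had -1.45, -1.05, -1.11 and -1.09 (mean -1.17 ± 0.10, adjusted p = 0.0109 by limma), and *HTB2*, for histone H2B, had -1.18, -0.78, -1.09 and -0.93 (mean -0.99 ± 0.02, adjusted p = 0.0241 by limma). The others reached from -1.02 for the variant *HTZ1* to -0.58 for *HHT2*. Neither call held without either replicate. Other cell cycle genes were chosen after their values were seen. They include *FAR1*, the Cdk inhibitor of the pheromone response, at -1.67 ± 0.27, *SFG1*, a factor of pseudohyphal growth, at -1.52 ± 0.93, *SVS1*, a wall protein of G1 cells, at -1.55 ± 0.08, and the bud neck genes *AIM44* at -1.32 ± 0.07 and *TOS2* at -1.24 ± 0.06, all lower in treated cells. *SFG1* was at -0.86 without replicate 2 and -2.18 without replicate 1 and lost its call without replicate 2, as did *AIM44* and *TOS2*.

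Most targets of Pdr1 and Pdr3 rose, in a list that was likewise chosen with earlier results of these data known. Of 17 measured targets, 12 were higher and 0 lower, with 17 of 17 above 0 and a median log2 ratio of 1.29. Without replicate 1, 10 passed, without replicate 2, 7, and with subtracted background 7 of 17. *YGR035C*, an open reading frame without a known function, had 2.54, 2.27, 2.34 and 2.58 (mean 2.43 ± 0.04, adjusted p = 3.96e-04 by limma). Its raw intensity was 2837, 7769, 3176 and 6462 units in treated and 332, 1546, 1071 and 848 units in untreated samples.

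*ICT1*, an acyltransferase that makes phosphatidic acid, had 1.90, 1.75, 2.08 and 1.91 (mean 1.91 ± 0.12). The ABC transporter *SNQ2* had 2.01, 2.11, 1.95 and 1.52 (mean 1.90 ± 0.23), and *PDR5*, the main multidrug ABC transporter, had 2.10, 1.55, 1.52 and 1.86 (mean 1.76 ± 0.09). *TPO1*, which exports polyamines, averaged 1.87 ± 0.31, and *GRE2*, a methylglyoxal reductase, 1.81 ± 0.02. Smaller rises were those of *RSB1*, a sphingoid base translocator, at 1.59 ± 0.39, the transporters *YOR1* at 1.09 ± 0.27 and *PDR10* at 0.99 ± 0.05, and *CIS1*, *RTA1* and *YPL088W* at 1.29 ± 0.07, 1.20 ± 0.12 and 1.31 ± 0.29. The members *PDR15*, an ABC transporter close to *PDR5*, and *PDR3* itself were near 0 at 0.11 ± 0.04 and 0.08 ± 0.02, and *PDR16*, *IPT1* and *LAF1* lay between 0.58 and 0.66 without passing.

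Detoxifying enzymes that belong to other regulons were higher in part. *GTT2*, a glutathione transferase, had 2.36, 1.998, 2.27 and 2.31 (mean 2.24 ± 0.08, adjusted p = 6.10e-04 by limma) and *ECM4*, an omega-class glutathione transferase, 2.10, 1.27, 1.16 and 1.29 (mean 1.45 ± 0.32), while *GTT3* fell at -0.99 ± 0.13, leaving 2 higher and 1 lower of 14 genes. *ECM4* lost its call without replicate 1 and *GTT3* without either replicate. Of 22 Yap1 genes, 3 rose and 0 fell, with a median of 0.46, and 2 passed without each replicate and with subtracted background. They were *OSI1*, an oxidative stress-induced gene, at 2.37, 2.19, 1.69 and 2.57 (mean 2.20 ± 0.11, adjusted p = 6.10e-04 by limma), the old yellow enzyme *OYE3* at 1.45 ± 0.13, and *YAP1*, the gene of the factor, at 1.21 ± 0.07.

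The thioredoxin and peroxiredoxin genes of the Yap1 list did not pass, with *TRX2* at 0.34 ± 0.04, *TRR1* at -0.06 ± 0.21 and *TSA1* at 0.03 ± 0.14. Of 6 aryl-alcohol dehydrogenase genes, *AAD4*, *AAD14* and *AAD6* rose, averaging 1.41 ± 0.34, 1.35 ± 0.40 and 1.28 ± 0.18, and 6 of 6 were above 0. The members of this family are close copies, so that their spots may share RNA. The 3 calls were lost without replicate 1 and with subtracted background, and *AAD4* and *AAD14* were highest on array A of replicate 1 (2.18 and 2.15). In the small HSP31 family, chosen after its values were seen, *SNO4* at 1.26 ± 0.19 and *HSP32* at 1.09 ± 0.18 rose, 2 of 4 genes, some of which are likewise near-identical copies. Both calls were lost without replicate 2 and that of *HSP32* also without replicate 1. *YML131W*, an oxidoreductase of unknown role also chosen after the fact, averaged 1.40 ± 0.03.

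**Figure D4:**
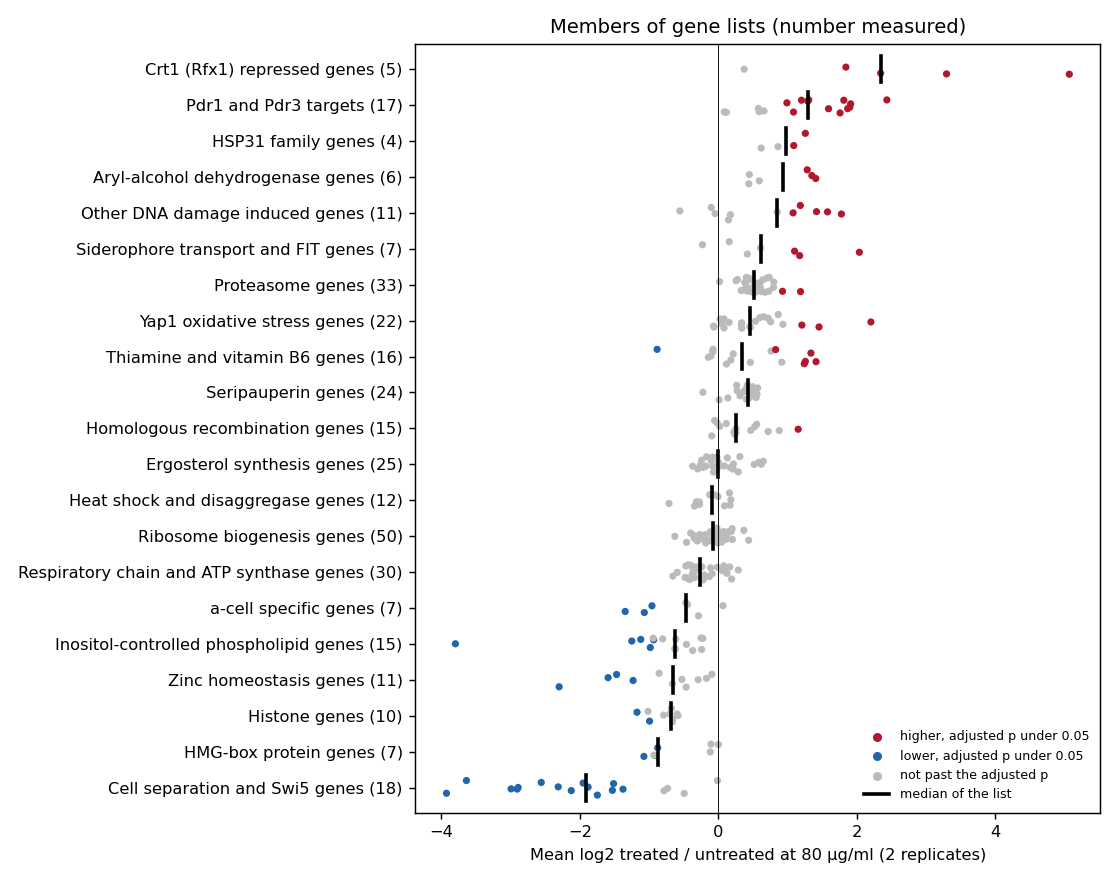
Mean log2 ratio of treated over untreated intensity at 80 μg/ml KP1019 of the members of selected gene lists. Each point is a gene, red where it was called higher, blue where lower and grey where not called, and the vertical mark is the list's median, with the Crt1 genes at 2.34, the Pdr1 and Pdr3 targets at 1.29 and the cell separation genes at -1.92.

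Some genes of iron uptake rose, while some zinc genes fell. Of 7 genes for siderophore transport and its cell wall mannoproteins, 3 rose and 0 fell, with a median of 0.61. *SIT1*, a transporter of iron bound to ferrioxamine, had 2.72, 1.89, 1.27 and 2.27 (mean 2.04 ± 0.38, adjusted p = 0.00173 by limma), *ARN1*, a related transporter, 0.71, 1.33, 1.42 and 1.24 (mean 1.17 ± 0.22), and *FIT2*, a wall mannoprotein, 0.47, 1.29, 1.30 and 1.34 (mean 1.10 ± 0.31). *SIT1* alone passed without replicate 2 and with subtracted background. The high-affinity reductive system did not pass, with the oxidase *FET3* at 0.73 ± 0.41 and the permease *FTR1* at 0.36 ± 0.18. In that list of 19 genes, *SMF3*, which exports iron from the vacuole, rose at 1.04 ± 0.18 but lost its call without either replicate, and *FET4*, the low-affinity carrier of iron and zinc, fell at -1.47 ± 0.11. *TIS11*, which destabilises messages of iron-using proteins when iron is short, rose at 0.997, 1.11, 0.75 and 0.94 (mean 0.95 ± 0.15), the 1 of 15 genes of intracellular iron homeostasis to do so, and lost its call without either replicate.

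Zinc genes lay below 0 in 11 of 11 cases, with a median of -0.66, and 4 fell. *ZPS1*, a surface protein made when zinc is low, had log2 ratios of -2.26, -2.28, -2.32 and -2.33 (mean -2.30 ± 0.04, adjusted p = 5.46e-04 by limma), the narrowest range among the 15 largest falls. *ADH4*, a zinc-regulated alcohol dehydrogenase, averaged -1.59 ± 0.04, *FET4* -1.47 ± 0.11 and *ZAP1*, the activator of the regulon, -1.23 ± 0.13. *ZRT1*, the high-affinity zinc transporter, did not pass, and array A of replicate 1 had the opposite sign to the others (0.93, -1.41, -1.76 and -1.18). Without replicate 1, 5 members of the list passed, without replicate 2, 3, and with subtracted background 2. *YOR387C*, a small open reading frame chosen after its values were seen, showed the same split between arrays at 0.14, -1.995, -2.02 and -1.38 (mean -1.31 ± 0.55) and lost its call without replicate 2.

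Phospholipid genes under the control of inositol fell in part, *INO1* by far the most. All 15 measured members were below 0, with a median of -0.63, and 5 passed. *INO1*, which makes inositol phosphate from glucose 6-phosphate, had -3.72, -3.61, -3.50 and -4.35 (mean -3.80 ± 0.19, adjusted p = 7.81e-05 by limma). Its raw intensity was 133, 762, 949 and 601 units in treated and 1590.4, 10881, 18043 and 11503 units in untreated samples, and on each array the untreated value was many-fold higher. The other calls were far smaller. *ITR1*, the inositol transporter, averaged -1.25 ± 0.47, *PSD1*, phosphatidylserine decarboxylase, -1.12 ± 0.21, *HNM1*, the choline transporter, -0.98 ± 0.17, and *CHO1*, phosphatidylserine synthase, -0.94 ± 0.03. Without replicate 1 and with subtracted background 1 member passed, and without replicate 2, 2. The methyltransferase *OPI3* missed the threshold at -0.80 ± 0.16 (adjusted p = 0.0535 by limma), and the regulators *INO2*, *INO4* and *OPI1* averaged -0.62 ± 0.33, -0.63 ± 0.13 and -0.62 ± 0.23. Of 18 genes of fatty acid and sphingolipid synthesis 1 fell, *FAA3*, an acyl-CoA synthetase, at -0.94 ± 0.12, a call lost without either replicate, and none of 25 ergosterol genes passed.

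Carbon source genes changed in a few members. Of 14 hexose transporter genes, *HXT5*, used under slow growth, rose at 0.82, 1.51, 1.62 and 1.25 (mean 1.30 ± 0.19), as did the near-identical *HXT9* and *HXT11* at 0.93 ± 0.20 and 0.92 ± 0.03. *HXT12*, a further close copy chosen after its values were seen, had 0.94 ± 0.03 and lost its call without either replicate, and cross-hybridisation among these 3 was not tested. *HXT2* had the highest value among members that did not pass, at 1.31, 0.67, 1.39 and 1.63 (mean 1.25 ± 0.36, adjusted p = 0.238 by limma). Without replicate 1, 2 members passed, and without replicate 2, 0. Of 15 regulators of glucose repression, a list chosen after its values were seen, the repressors *MIG2* at 1.23 ± 0.003 and *NRG1* at 0.98 ± 0.12 and the phosphatase subunit *REG2* at 1.12 ± 0.03 rose, and 0 passed without either replicate.

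Among 22 glycolytic and fermentation genes only *PDC6*, a minor pyruvate decarboxylase, was called, at 0.87 ± 0.13. The carnitine acetyltransferase *CAT2* was the 1 call among 10 genes of gluconeogenesis, at 1.05 ± 0.05. In the pentose phosphate pathway, chosen after its values were seen, the minor isoenzymes *NQM1* and *GND2* rose at 1.30 ± 0.13 and 1.05 ± 0.17, 2 of 11 genes. These 4 calls were each lost without replicate 2. In lists of stress and degradation 1 gene each was called higher, where 2.11% of all genes were, namely *GCY1*, a glycerol dehydrogenase, among 15 osmotic stress genes at 0.82 ± 0.15, *OAZ1*, which controls polyamine synthesis, among 11 polyamine genes at 0.89 ± 0.07, and *PRB1*, a vacuolar protease, among 14 autophagy and protease genes at 0.87 ± 0.07. All 3 calls were lost without either replicate, and those of *GCY1* and *PRB1* also with median centring and with the authors' ratios. None of 24 seripauperin genes, a subtelomeric family of close copies, passed, although 23 were above 0 with a median of 0.42.

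Some genes of thiamine synthesis and nitrogen catabolism rose, with no call that held without replicate 2. Of 16 genes for thiamine and vitamin B6, 5 rose and 1 fell, 4 passed without replicate 1, 0 without replicate 2 and 0 with subtracted background. *THI12*, *THI5*, *THI13* and *THI11*, which make the pyrimidine part of thiamine, averaged 1.41 ± 0.23, 1.34 ± 0.18, 1.26 ± 0.34 and 1.24 ± 0.25, and as close copies their spots may share RNA. *SNZ3*, of vitamin B6 synthesis, rose at 0.83 ± 0.09, and *PHO3*, a thiamine-repressed acid phosphatase, fell at -0.88 ± 0.15 beside its neighbour *PHO5*, the phosphate-regulated acid phosphatase, at -1.06 ± 0.36. *PHO5* was the 1 of 16 phosphate genes to pass, and not without replicate 1.

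Of 21 genes of nitrogen catabolism and amino acid uptake, *PUT1*, proline oxidase, at 1.43 ± 0.62, and *DAL1*, allantoinase, at 1.14 ± 0.32, rose, and neither passed without replicate 2, nor *DAL1* without array A of replicate 1. In the list of 44 amino acid synthesis genes of Gcn4, *CPA1* rose at 0.77 ± 0.05 and *ARG1* fell at -1.09 ± 0.01, both of arginine synthesis. Each made up 2.273% of the list, against 2.11% of all genes called higher and 1.41% lower, which is no result about these genes. The list's median was -0.22. *ARG1* was at -1.08 without replicate 1 and -1.10 without replicate 2, and *CPA1* at 0.81 and 0.74. Of 22 sulfur genes *SAM2*, S-adenosylmethionine synthetase, fell at -1.36 ± 0.21, a call lost without replicate 1. None of 19 genes of purine and one-carbon synthesis passed.

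Genes of mating and meiosis served as markers of other cell types and states. Of 7 a-cell genes, *BAR1*, the protease that destroys alpha factor, fell at -1.66, -1.15, -1.10 and -1.46 (mean -1.35 ± 0.09), *AGA2*, an agglutinin subunit, at -1.07 ± 0.10, and *ASG7* at -0.96 ± 0.37, while the pheromone genes *MFA1* and *MFA2* were at -0.29 ± 0.21 and 0.07 ± 0.01. *AGA1*, the anchor of the agglutinin, fell at -1.66, -1.82, -2.18 and -2.06 (mean -1.93 ± 0.27, adjusted p = 0.00173 by limma), the 1 call among 17 pheromone-induced genes, of which 13 were above the blanks in both channels on every array. Of 4 alpha-cell genes, 2 were above the blanks on every array, and *STE3*, the receptor for a-factor, rose at 0.55, 0.79, 1.26 and 0.65 (mean 0.81 ± 0.20). *AGA2*, *ASG7* and *STE3* lost their calls without either replicate, while *BAR1* and *AGA1* kept theirs. With subtracted background 0 of the 6 a-cell genes tested passed, and *BAR1* could not be tested. The part of *STE3* in the other results was not tested.

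Of 16 meiosis and sporulation genes, 2 rose and 0 fell, with a median of 0.40. *RIM4*, an RNA-binding regulator of meiosis, had 2.01, 2.002, 1.61 and 1.95 (mean 1.89 ± 0.16, adjusted p = 0.00133 by limma), and *DIT1*, of spore wall synthesis, averaged 1.63 ± 0.15. Both passed without either replicate. *OSW2* and *SPO1*, a pair of sporulation genes chosen after their values were seen, averaged 1.51 ± 0.15 and 0.85 ± 0.01, and *SPO1* lost its call without either replicate. Of the 16 meiosis genes, 10 were above the blanks in both channels on all 4 arrays.

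Several of the largest rises lay outside any list. *NCA3*, a SUN-family protein first linked to mitochondria, had 1.70, 2.76, 2.76 and 2.65 (mean 2.47 ± 0.34, adjusted p = 8.83e-04 by limma), whereas its relative *SUN4* fell. *PRM7*, a pheromone-regulated membrane protein gene, had 0.52, 2.96, 2.93 and 2.27 (mean 2.17 ± 0.61), and *YDL038C*, which R64 RefSeq joins with *PRM7* to 1 gene, 1.77, 0.43, 2.66 and 2.59 (mean 1.86 ± 1.08). *YDL038C* was higher on both arrays of replicate 2 than on those of replicate 1 and did not pass without replicate 2 (adjusted p = 0.153 by limma) or without array A of replicate 1. *ECL1*, whose extra copies extend chronological life span, had 2.03, 1.86, 1.89 and 1.60 (mean 1.85 ± 0.14). Among genes chosen after their values were seen, *YOR338W* averaged 1.77 ± 0.24, the zinc-finger protein gene *YPR015C* 1.68 ± 0.24 and *IRC18* 1.51 ± 0.08.

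Some genes of chromatin proteins fell, where 1.41% of all genes were called lower. Median log2 ratios were -0.18 over the 17 RSC genes and -0.88 over the 7 HMG-box genes given here. In lists chosen after their values were seen, 3 of 17 genes of the RSC remodelling complex fell and 0 rose, namely *RSC3*, a DNA-binding subunit, at -1.26 ± 0.11, *RSC2* at -1.10 ± 0.10 and the ATPase *STH1* at -0.95 ± 0.19. Of 7 HMG-box genes 3 fell, namely *NHP6A* at -1.08 ± 0.11, its copy *NHP6B* at -0.91 ± 0.02 and *IXR1*, which binds DNA distorted by cross-links and regulates ribonucleotide reductase genes, at -0.88 ± 0.16. *HMO1*, a further HMG-box gene, had -0.93 ± 0.03 and did not pass (adjusted p = 0.16 by limma). Of these 6 calls 1 held without replicate 2 and 0 without replicate 1. *ABF1*, a general regulatory factor, fell at -1.19 ± 0.09 and lost its call without either replicate.

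The large programs of growth and protein folding held almost no calls. None of 56 small-subunit and 76 large-subunit ribosomal protein genes, 50 ribosome biogenesis genes, 21 RNA polymerase I and III genes or 67 mitochondrial ribosomal protein genes passed, and of 16 elongation genes *HEF3*, a rarely used elongation factor copy, rose at 0.90 ± 0.16. The median log2 ratios of these lists lay between -0.28 and -0.03, and those of the large-subunit and polymerase lists turned their sign in 1 setting each. None of 12 heat shock and disaggregase genes, 17 genes of cytosolic chaperones, 15 genes of folding in the endoplasmic reticulum, 17 trehalose and glycogen genes, 15 TCA cycle genes or 30 respiratory chain genes passed. *HAC1*, the factor of the unfolded protein response, had 1.83, -1.18, -4.09 and -2.47, with opposite signs within replicate 1, and did not pass (adjusted p = 0.346 by limma).

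The proteasome genes were above 0 in 33 of 33 cases with a median of 0.51, and 2 passed. *RPN4*, the activator of proteasome genes, had 1.48, 0.96, 1.06 and 1.25 (mean 1.19 ± 0.05, adjusted p = 0.0112 by limma), and *RPT6*, an ATPase of the base, averaged 0.93 ± 0.21. Neither held without either replicate. When the arrays were scaled to 1 spread 27 passed, a setting that called 1476 of all 6388 genes. Polyubiquitin *UBI4*, the only call among the 12 genes with 17 spots each, rose at 1.73, 0.78, 0.67 and 1.04 (mean 1.05 ± 0.29), and the stress-linked conjugating enzyme *UBC5* at 1.03 ± 0.08, in a list of 11 chosen after its values were seen. Like *HEF3*, they lost their calls without either replicate. Over the 12 genes with 17 spots, the SD between spots of 1 gene on 1 array had a median of 0.13 and the SD between the 4 array means a median of 0.19.

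The study's methods used no test across genes but a fold rule, under which a gene counts where both biological replicates show at least 3.5-fold and the fold changes of a dye pair differ by at most 50% of their mean and in range by at most 3.5 times the smaller value. Here the rule was applied to loess-normalised mean spot intensities, whereas the study used total spot signal. At 80 μg/ml 5 genes met the rule as induced (0.0783% of genes) and 10 as repressed (0.157%). These are not the study's own lists, since the paper also reports *RNR4* and *GRE2* as induced at this dose and neither met the rule here. Induced were *HUG1* (40.4-fold in replicate 1 and 29.3-fold in replicate 2), *RNR3* (11.4 and 8.77), *YGR035C* (5.32 and 5.52), *GTT2* (4.57 and 4.91) and *ICT1* (3.54 and 4.001). The repressed genes were *EGT2* (12.4 and 12.6), *DSE4* (7.01 and 9.18), *AMN1* (7.62 and 7.43), *PIR1* (6.72 and 8.35), *CTS1* (6.58 and 8.56), *SCW11* (4.79 and 7.36), *ZPS1* (4.83 and 5.02), *WSC4* (4.14 and 4.85), *DSE3* (4.61 and 4.25) and *NFG1* (4.01 and 3.80). All 15 were also called by limma. *DSE1*, *INO1*, *SUN4*, *NIS1* and *HO*, the mating-type endonuclease, on the repressed side and *NCA3*, *RNR4*, *OSI1*, *PRM7* and *SIT1* on the induced side passed the fold but not the limit on the dye pair. *GPN3* and *YIL012W* did so with opposite signs on the arrays of a pair, at -6.35, 4.65, 5.44 and -3.26 for *GPN3*, where the sign followed the dye.

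The doses were compared between separate cultures with 2 biological replicates each. By limma the difference passed for 9 of 6388 genes (0.141%), a count that depended heavily on the replicates and the fit. The spread of the ratios over genes, as median absolute deviation per array, was 0.3045 to 0.4793 at 80 μg/ml and 0.3997 to 0.7407 at 40 μg/ml. The count of 9 became 597 when arrays were scaled to 1 spread, 0 with subtracted background, 3 with total in place of mean spot intensity 42 or 29 without 1 replicate of 80 μg/ml, 256 or 2339 without 1 replicate of 40 μg/ml and 440 with the replicate number as a block. At 40 μg/ml, 126 of the 135 genes called higher here had log2 ratios over 0. Of the 90 called lower, 79 had log2 ratios under 0. In the same fit 1489 genes were called at 40 μg/ml. The share of all genes with the same sign at both doses is not given, so these counts have no baseline.

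*INO1* averaged -3.80 ± 0.19 at 80 μg/ml and -0.15 ± 0.08 at 40 μg/ml, a difference of -3.65 (adjusted p = 0.00174 by limma). *ZPS1* averaged -2.30 ± 0.04 at 80 μg/ml against -0.22 ± 0.12 at 40 μg/ml, *WSC4* -2.16 ± 0.17 against 0.00 ± 0.05, and *NFG1* -1.96 ± 0.05 against -0.12 ± 0.05. All 4 were thus lower at the higher dose and near 0 at the lower one, although *NFG1* at 40 μg/ml was above the blanks on 0 of 4 treated and 3 of 4 untreated channels. *YGR035C* averaged 2.43 ± 0.04 at 80 μg/ml and 0.44 ± 0.03 at 40 μg/ml, a difference of 1.99.

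For the other 4 genes the larger change was that at 40 μg/ml. *HSP26*, a small heat shock protein, averaged 0.18 ± 0.03 at 80 μg/ml and 2.73 ± 0.28 at 40 μg/ml, *YHR033W*, an uncharacterised reading frame, 0.86 ± 0.02 and 2.69 ± 0.22, and *PCL1*, a G1 cyclin of Pho85, 0.27 ± 0.17 and -2.28 ± 0.45. *DSE2* averaged -0.01 ± 0.01 at 80 μg/ml, where its spot was mostly at the level of the blanks, and -3.41 ± 0.05 at 40 μg/ml, where it was above them on every array. Among the leading genes with no difference that passed, *HUG1* was at 5.07 with 80 μg/ml and 5.90 with 40 μg/ml, *RNR3* at 3.30 and 3.07, *EGT2* at -3.64 and -2.80, and *CTS1* at -2.89 and -3.04. A missed threshold does not show that the doses act alike. One gene was called in opposite directions, *TIS11*, higher at 80 μg/ml (0.95) and lower at 40 μg/ml (-0.61).

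**Figure D5:**
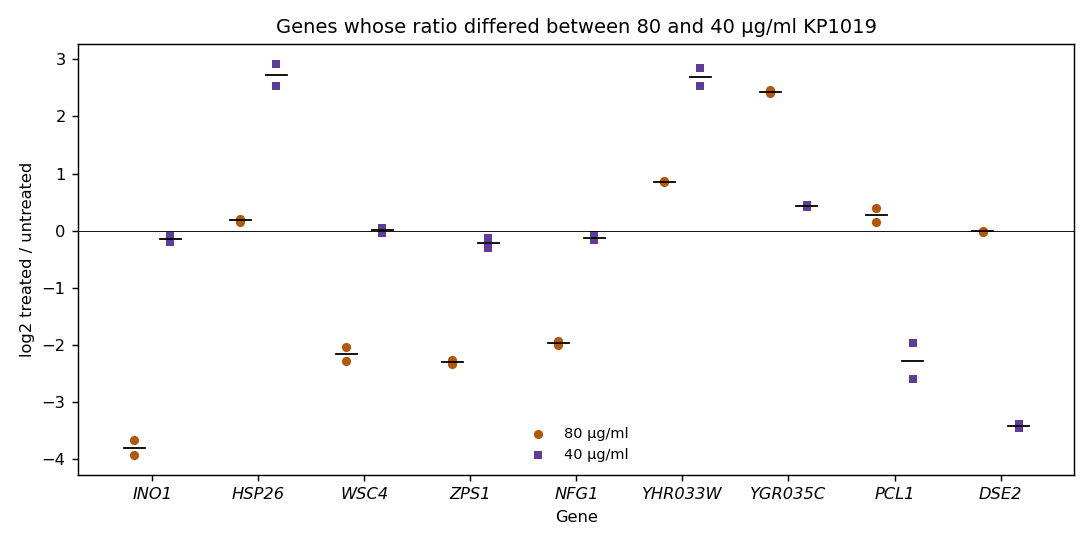
Log2 ratio of treated over untreated intensity at 80 μg/ml (left of each pair) and 40 μg/ml KP1019 for the 9 genes whose difference between doses passed. Points are biological replicates and bars their mean, with *INO1* at -3.80 and -0.15 and *DSE2* at -0.01 and -3.41.

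Along the chromosomes, among the 5848 genes matched to R64 RefSeq, 8 of 5831 pairs of neighbours were both called higher, 3 both lower and 4 in opposite directions. Over all genes 2.11% were called higher and 1.41% lower. How many such pairs chance would give was not worked out, so the counts are no result about neighbours. The pairs both higher included *MAG1* with *DDI1*, *RAD54* with *SUT1*, a factor of sterol uptake averaging 1.17 ± 0.35, and *BNA2* of NAD synthesis (1.28 ± 0.62) with *YJR079W* (1.05 ± 0.29). In 4 of the 8 a thiamine gene stood beside a vitamin B6 or aryl-alcohol dehydrogenase gene, as in *THI13* with *AAD4* and *THI12* with *AAD14*, and as both families are close copies their spots may share RNA, which was not tested. Another of these pairs is *THI5* with *AAD6*, to which R64 RefSeq joins the measured reading frame *YFL057C* (1.24 ± 0.20). Reading frames without a match, such as *YOR248W* beside *SRL1* (-0.94 ± 0.06 and -1.06 ± 0.09), were not counted. The pairs both lower were *PHO3* with *PHO5*, *ICS2* (-0.79 ± 0.003) with *AMN1*, and *ASG7* with the histone methyltransferase *SET2* (-0.94 ± 0.14). *PIR1* with *PIR3*, *DSE3* with *GPN2* (0.79 ± 0.12), *SAM2* with *PLM2* and *PMI40* with *FMP52* (1.36 ± 0.26) were adjacent and moved in opposite directions. The genes of these pairs outside the lists were chosen after their values were seen. Of them *ICS2*, *SET2* and *GPN2* lost their calls without either replicate, *SUT1* and *YJR079W* without replicate 2, and *BNA2* and *FMP52* without replicate 1.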

How the data were processed

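Cells of strain BY4741 were compared with and without KP1019 on 2-colour spotted DNA arrays, which the authors scanned and quantified with MagicTool. The deposited intensities are raw foreground and background values per spot and dye. The deposited score table, a signed fold change computed by the authors, served as an alternative. Arrays were read in R 4.3.3 with limma 3.58.1. Mean intensities were background-corrected by normexp (offset 50) and normalised by loess within each array with blank and control spots at weight 0, without scaling between arrays. Spots of 1 gene were averaged. Exchanged arrays were turned by the dye labels, so that each log2 ratio is treated over untreated, and the arrays of a dye pair were averaged to 1 biological replicate. The 2 replicates at 80 μg/ml and the 2 at 40 μg/ml were fitted together (2 residual and 5.66 prior degrees of freedom), each dose was tested against 0 and against the other, with Benjamini-Hochberg adjustment over all 6388 genes. The median SE of a mean log2 ratio was 0.179, and the number of arrays limits the precision. On simulated data for this comparison with 6388 genes, 200 genes were changed. Of log2 changes of 1, 58% were found, and of log2 changes of 2, 100%. The simulated noise was independent, with 1 spread per gene at both doses and no dye effect, whereas the real arrays differed in spread.

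The 4 arrays of 1 dose came from cultures labelled as separate biological samples. No label gives a slide or scan date, so such batches cannot be told apart from the samples. Of the 6388 names 5848 matched R64 RefSeq locus tags. The methods state that each array holds 2 copies of the genome, while the files give 1 value per feature and 12 genes have 17 spots. Genes named are the 15 largest changes in each direction of 1 sign on 4 arrays, called members of 68 lists (up to 6 a list, with other members for contrast), genes that differed by dose and genes past the fold rule, plus those said to be chosen after their values were seen. The members and lists, and the rule for spots above the blanks, were chosen with earlier results of these data known. Alternatives covered background, normalisation, scaling, intensity measure, dim spots, samples fitted, left-out replicates and the replicate block. Some genes are not reported here. The promoter sequences planned for the leading groups were not analysed here.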

Additional observations from a re-analysis of the deposited data

Results flagged for a closer look

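The difference between the doses passed in limma for 9 genes. The log2 ratio at 80 minus that at 40 μg/ml was -3.65 for *INO1*, -2.55 for *HSP26*, -2.16 for *WSC4*, -2.08 for *ZPS1*, -1.84 for *NFG1* and -1.83 for *YHR033W*, and it was 1.99 for *YGR035C*, 2.55 for *PCL1* and 3.40 for *DSE2*. The *DSE2* spot was above the blanks on 1 of 4 arrays at 80 μg/ml in each channel.

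A single array stood apart from the other 3 of its dose, by Dixon's criterion, for 10 of the 161 genes named with a test (6.21%), where chance gives about 1 in 20. In 8 of the 10 this was array A of replicate 1. Its log2 ratio was 1.70 for *NCA3*, -1.45 for *HTA1*, 0.47 for *FIT2*, 2.18 for *AAD4*, 2.15 for *AAD14*, 2.10 for *ECM4*, -1.31 for *NHP6A* and 1.07 for *GPN2*. Array A of replicate 2 stood apart with 1.61 for *RIM4* and -0.13 for *PRY3*.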

How the results depend on the processing

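Of the 225 genes changed at 80 μg/ml, 135 higher and 90 lower, none was called in the opposite direction under any setting, and the median of all genes shifted by less than 0.1. With subtracted background 53 genes were called (29 higher and 24 lower, 52 of them called before) and 775 had an unadjusted p under 0.05. With arrays scaled to 1 spread 1476 were called (788 and 688), and with the 80 μg/ml replicates alone 1415 (774 and 641). Leaving out 1 replicate of either dose gave 82 to 1415 calls (43 to 774 higher and 39 to 641 lower), the lowest without replicate 2 of 80 μg/ml and the highest without a replicate of 40 μg/ml. A replicate left alone in its dose is assumed to vary like the other dose. A call lost or kept in such a fit therefore does not by itself show how well the replicates match. Without a replicate of 40 μg/ml, only the 80 μg/ml pair set the spread, as in the fit of that pair alone. The cause of the other shifts was not tested.

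The 9 differences between doses became 0 with subtracted background (905 at an unadjusted p under 0.05), 597 with scaled arrays and 3 with total intensity, and 8 to 2339 with an array or replicate left out. They cannot be had from 80 μg/ml alone.

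Replicate numbers are shared between the doses, but nothing says that they pair cultures, and deviations of same-numbered replicates correlated at -0.14. With the replicate block 469 genes were called (282 higher and 187 lower) and 440 by dose. With crossed pairing, a replicate block added after seeing the data, these were 702 (410 and 292) and 830.

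The fold rule gave 5 induced and 10 repressed genes. Induced genes numbered 8 without background correction, 10 with subtracted background, 8 from the authors' deposited ratios, 55 at 2-fold, 9 without the limit on dye pairs and 11 to 15 without 1 replicate. Repressed genes numbered 3 with scaled arrays, 40 at 2-fold and 12 to 18 without 1 replicate.

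*DSE2* at 80 μg/ml (-0.01, not called) turned to 0.0047 with scaled arrays and lay between -0.0191 and 0.0588 with a replicate or array left out, its spot being near the blanks. Of 161 named genes 45 kept their call in every setting, and 109 lost it with subtracted background, 91 without replicate 2 and 79 without replicate 1 of 80 μg/ml. The medians of 17 of 68 lists changed sign in some setting. Leaving out array A of replicate 1 was chosen after seeing the data. The planned search of promoter motifs was not run.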
